A study of Mus musculus with 2 samples.

Results

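Saa3, Lrg1, Lcn2 and Hp are 4 of the 27998 genes in the count tables of this study, and all 4 were present by symbol in both tables. They were chosen because Saa3, Lrg1 and Lcn2 were higher in monocytes after orthodontic tooth movement (OTM), so their monocyte ratios are given as descriptions. Their spread over single monocytes comes from the same counts, partly follows from that rise and is likewise a description. Their levels in neutrophils and the values of Hp were not used in the choice. The study compared cells of the alveolar bone, the jaw bone that holds the teeth, with and without orthodontic force in male C57/B6 J mice of 8 weeks. In the OTM group, a nickel-titanium coil spring pulled the left first molar toward the incisors for 7 days, and the Control group had no force. Cells stained for F4/80 and CD11b were sorted and 1 droplet library was made per group, so there was no replicate of either condition and no p-value was computed. The mice of both groups are given only as 1 total, the number behind each library is not given in the sources used here, and animal, library and force cannot be told apart.

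Acute-phase proteins are secreted in larger amounts during inflammation, mainly by the liver and also by myeloid cells, and interleukin-1, interleukin-6 and tumour necrosis factor acting through NF-kB, STAT3 and C/EBP factors are their known inducers. Saa3 encodes serum amyloid A3, the form of this lipid-binding protein that is made outside the liver, in macrophages among other cells. Lrg1 encodes leucine-rich alpha-2-glycoprotein 1, which modulates TGF-beta signalling in blood vessels and is stored in neutrophil granules. Lcn2 encodes lipocalin 2, which binds bacterial siderophores and is a classical specific granule protein of neutrophils. Hp encodes haptoglobin, which binds free hemoglobin and is made by the liver and by maturing neutrophils.

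All 4 are protein-coding genes on the minus strand of the mouse genome (GRCm38, GENCODE vM21, matched by Ensembl identifier). Saa3 (ENSMUSG00000040026) lies at chr7:46711998-46715700, Lrg1 (ENSMUSG00000037095) at chr17:56119678-56122001, Lcn2 (ENSMUSG00000026822) at chr2:32384633-32388252 and Hp (ENSMUSG00000031722) at chr8:109575128-109579172. The 250 bases before the RefSeq transcription start (GRCm38.p6) are shown for the 3 genes by which the group was chosen. The promoter reference used here had no window for Hp. Capitals mark matches on either strand to TTNNGNAA, a core of C/EBP sites, and to an NF-kB-type core of 3 G, 5 bases of any kind and 2 C. The windows are chr7:46715677-46715926 for Saa3, chr17:56121947-56122196 for Lrg1 and chr2:32387740-32387989 for Lcn2, all on the minus strand. The GENCODE model of Lcn2 begins upstream of its window, and those of Saa3 and Lrg1 begin within theirs. The marked letters of Lrg1 lie downstream of its GENCODE start.
Saa3: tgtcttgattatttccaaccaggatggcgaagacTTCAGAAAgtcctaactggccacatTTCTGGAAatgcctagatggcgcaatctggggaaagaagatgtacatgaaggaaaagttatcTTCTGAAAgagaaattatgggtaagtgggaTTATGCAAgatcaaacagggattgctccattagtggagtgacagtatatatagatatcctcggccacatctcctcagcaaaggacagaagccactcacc
Lrg1: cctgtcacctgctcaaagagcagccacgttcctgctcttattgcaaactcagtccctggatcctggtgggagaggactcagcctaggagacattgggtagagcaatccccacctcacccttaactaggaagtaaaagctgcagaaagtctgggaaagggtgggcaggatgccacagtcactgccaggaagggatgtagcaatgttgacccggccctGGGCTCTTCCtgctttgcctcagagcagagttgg
Lcn2: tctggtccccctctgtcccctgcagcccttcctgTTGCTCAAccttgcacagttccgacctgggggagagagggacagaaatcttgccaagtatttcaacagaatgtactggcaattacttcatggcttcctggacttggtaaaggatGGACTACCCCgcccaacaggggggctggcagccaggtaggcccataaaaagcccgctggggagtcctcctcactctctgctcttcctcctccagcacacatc
The Saa3 window held 4 C/EBP-type matches and no NF-kB-type match, the Lrg1 window held 1 NF-kB-type match, and the Lcn2 window held 1 match of each type. Of 32841 mouse promoter windows of this length, 36.9% held the C/EBP-type letters and 45.8% the NF-kB-type letters. None of the 3 windows held TTCNNNGAA, the STAT-type letters found in 7.0% of windows, or TATAAA, found in 12.4%. No 2 matches overlapped, and a match describes the letters only.

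The tables held 2863 Control barcodes with 14620877 UMIs (unique molecular identifiers, each tagging 1 captured RNA) and 2058 OTM barcodes with 16500733 UMIs. After filtering, 2835 Control cells with a median of 3998 UMIs and 2052 OTM cells with a median of 6862 UMIs were kept, so OTM droplets were deeper, and 6 barcode sequences occurred in both libraries. The sorted cells were labelled macrophages, yet much of each library carried neutrophil markers. Clusters were therefore named from marker genes and joined into monocyte-like cells (1440 Control and 999 OTM) and neutrophil-like cells (1199 Control and 802 OTM). The largest Control monocyte-like cluster held 657 cells, with Vcan and Fn1 among its leading genes, and most OTM ones sat in a pair of clusters of 335 and 304 cells. The neutrophil-like class held immature (535 and 363) and mature cells (359 and 439), and in Control also a dividing immature cluster of 174 and an interferon-response cluster of 131 cells, names that no OTM cluster carried at the clustering resolution of 0.6. At resolution 1.0 a dividing immature cluster of 161 OTM cells stood beside one of 166 Control cells. Free RNA was present in both libraries, since only 2 Control and 1 OTM monocyte-like cells had no UMI of the neutrophil granule genes Camp, Ngp and Ltf. The 6 erythroid markers, led by hemoglobin, summed to 332 CPM (UMIs per 1e6 UMIs) in Control and 6716 CPM in OTM monocyte-like cells. In neutrophil-like cells the order was the other way, with 874 CPM in Control and 354 CPM in OTM. A Control cluster of 10 cells led by Hba-a1 and Hbb-bs was in neither class, whereas no OTM cluster was led by these genes. The OTM monocyte-like sum can therefore include hemoglobin-rich droplets and is not read as a level of free RNA. All 5 hepatocyte markers, Alb and Ttr among them, had 0 UMIs in both classes of both libraries.

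Saa3 stood at 353 CPM (95% Poisson interval 339 to 366, 2636 UMIs) in Control and at 7665 CPM (7608 to 7723, 68169 UMIs) in OTM monocyte-like cells. The OTM level was 21.7 times the Control level (95% conditional binomial interval 20.9 to 22.6), the 4th largest ratio of 5071 genes with at least 200 UMIs. These intervals, like the others below, cover counting error only. With a ratio of 2 as the threshold, Saa3, Lrg1 and Lcn2 were past it and Hp was not, against 2.15% of all 5071 genes (2.43% had a ratio of 0.5 or less), and since 3 of the 4 were chosen on this contrast nothing is read from that count. The median log2 ratio over these genes was -0.11, and TMM scaling, which sets ratios relative to the bulk of the genes, added 0.14 in monocyte-like and 0.18 in neutrophil-like cells.

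**Figure D1:**
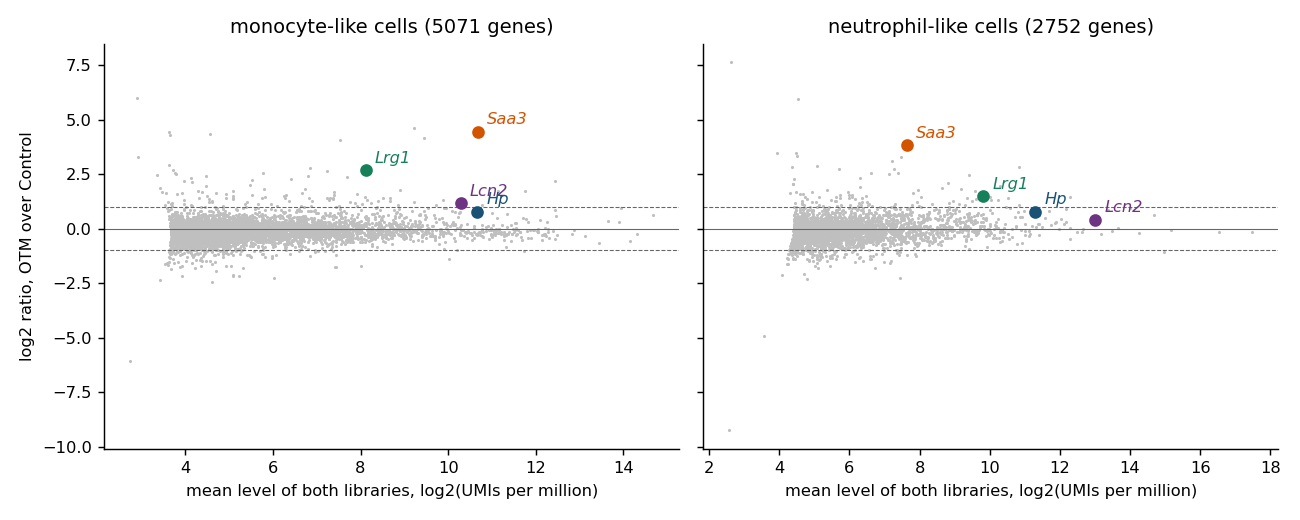
Each grey point is a gene with at least 200 UMIs in the class, with its mean level over both libraries on the horizontal axis (log2 CPM) and its log2 ratio, OTM over Control, on the vertical axis. Dashed lines mark a ratio of 2 either way. Saa3 sits at 4.44 in monocyte-like and 3.82 in neutrophil-like cells, while Lcn2 sits at 1.15 and 0.41.

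The way Saa3 was spread over single monocyte-like cells also differed between the libraries. In Control, 82.8% of the 1440 cells (80.8 to 84.8, Clopper-Pearson) had no Saa3 UMI, and the 10% of cells with the most Saa3 held 95.7% of its UMIs. In OTM only 11.5% of the 999 cells (9.60 to 13.7) had none, the median cell had 20 UMIs, and the highest 10% held 42%. Cells with 100 or more Saa3 UMIs numbered 1 of 1440 in Control and 275 of 999 in OTM (27.5%, 24.8 to 30.4), and these 275 carried 79.5% of the OTM monocyte-like Saa3 UMIs. These counts were not adjusted for depth, and the median total was 4339 UMIs in Control and 7843 in OTM. Depth alone could raise the share of cells with a UMI, so each cell was thinned to 1500 UMIs, which left out no cell. Saa3 was then found in 11.3% of Control (9.73 to 13.1) and 67.0% of OTM cells (64.0 to 69.9).

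Saa3 was graded among the OTM monocyte-like groups. The cluster of 335 cells, led by Apoc1, Dpep2 and Cd38, had 17247 CPM and a median of 120 UMIs per cell, whereas the cluster of 304 cells, led by Tnfsf9 and Rnase6, had 4675 CPM and a median of 3 UMIs. Dividing monocyte or macrophage-like cells had 103 CPM (88.0 to 121) in Control and 3502 CPM (3408 to 3598) in OTM, a ratio of 33.9 (28.9 to 39.9). MHC class II-like cells, named from H2-Aa, H2-Ab1 and Cd74, had 288 CPM (261 to 316) and 2869 CPM (2802 to 2936), a ratio of 9.97 (9.04 to 11). The Control nonclassical monocyte-like cells, with Ace and Treml4, had 85.2 CPM (66.4 to 108) and no OTM cluster matched them. OTM was the higher library in each group found in both.

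**Figure D2:**
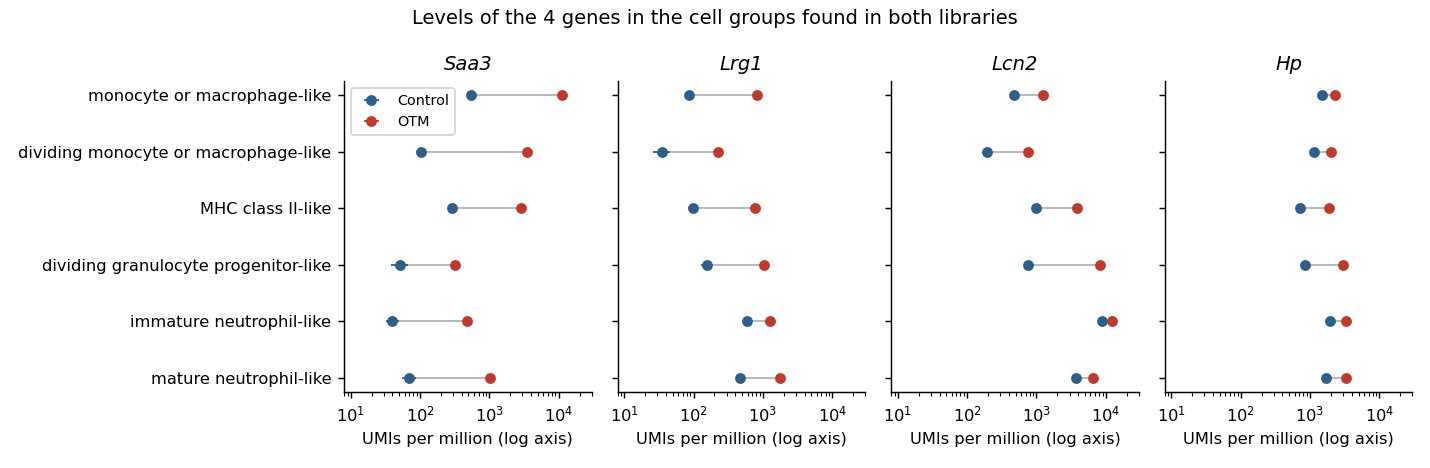
Levels of each gene in the 6 cell groups found in both libraries, in CPM on a log axis, with Control in blue, OTM in red and 95% Poisson intervals, which are mostly narrower than the points. For all 4 genes the OTM point lies to the right of the Control point in all 6 groups.

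In neutrophil-like cells Saa3 was at 52.8 CPM (46.8 to 59.4, 280 UMIs) in Control and 746 CPM (720.4 to 772, 3227 UMIs) in OTM, a ratio of 14.1 (12.5 to 16.0). Here 2 of the 4 genes, Saa3 and Lrg1, were past a ratio of 2, against 3.42% of the 2752 genes with at least 200 UMIs (4.22% had a ratio of 0.5 or less). The log2 ratio of Saa3 was 3.82 here, 3.04 with finer clusters and 5.94 with classes set per cell by marker UMIs. The neutrophil Saa3 was carried by few cells. In OTM, 745 of the 802 cells had 4 UMIs or fewer, the median cell had 1, and 36 cells with 20 or more UMIs held 72.5% of all Saa3 UMIs of the class. Those 36 cells had a median of 31.5 UMIs of the 12 monocyte markers per cell, against 1 in the 745 low cells, and a median of 14 UMIs of the neutrophil gene Retnlg against 181. Their monocyte transcripts exceeded 0.1% of the cell's UMIs in 28 of the 36 cells. Scrublet called 1 OTM neutrophil-like cell a doublet and none in Control.

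Without the cells over that limit, Saa3 was at 28.5 CPM (23.9 to 33.8) in 1065 Control and 293 CPM (276 to 311) in 719 OTM neutrophil-like cells, a ratio of 10.3 (8.57 to 12.4). That OTM level was 1.52 UMIs per droplet (1.44 to 1.62). In the 5 OTM droplets with over 50% hemoglobin UMIs, which should hold no Saa3 of their own, it was 2.00 UMIs per droplet (0.959 to 3.68), and the 11 such Control droplets held 0 Saa3 UMIs, with an upper Poisson bound of 0.335 per droplet. Of the OTM neutrophil-like cells below that limit, 8 of 719 still had 20 or more Saa3 UMIs and 58.1% had at least 1 Saa3 UMI, against 4 of the 5 hemoglobin-rich droplets, whose small number gives this background wide bounds. At that background level, the Saa3 UMIs of most OTM neutrophil-like cells are not read as expression. The ratio was 5.32 (4.22 to 6.77) in immature and 12.3 (8.29 to 19.2) in mature neutrophil-like cells under the same limit.

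**Figure D3:**
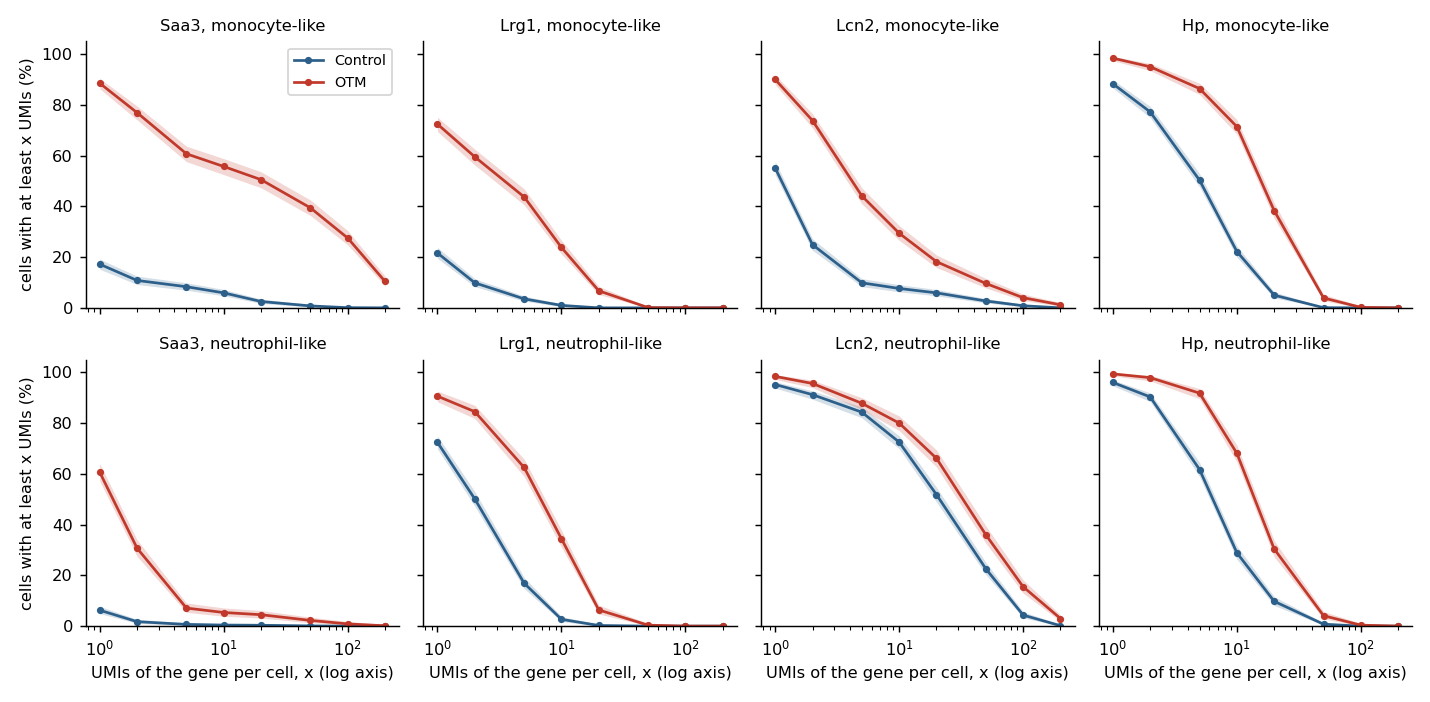
Share of cells (percent, vertical axis) that had at least x UMIs of the gene (horizontal axis, log scale) in monocyte-like (top) and neutrophil-like cells (bottom), with Control in blue, OTM in red and Clopper-Pearson bands. The Saa3 curve of OTM monocyte-like cells is still at 50.5% at 20 UMIs, while that of OTM neutrophil-like cells is down to 4.49%.

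Lrg1 was at 109 CPM (818 UMIs) in Control and 707 CPM (689 to 724, 6284 UMIs) in OTM monocyte-like cells, a ratio of 6.46 (6.0 to 6.95). In neutrophil-like cells it was at 541 CPM (522 to 561) and 1503 CPM (1466 to 1539.6), a ratio of 2.78 (2.66 to 2.90). OTM was higher in both classes, and Control monocyte-like cells had the lowest of the 4 levels. With classes set per cell by marker UMIs, which left 129 Control and 30 OTM monocyte-like cells, the log2 ratio of 2.69 was 1.74. The neutrophil signal was spread widely, as 72.4% of Control and 90.6% of OTM neutrophil-like cells had at least 1 UMI, or 50.3% (47.4 to 53.2) and 76.3% (73.2 to 79.2) after thinning. The 5 hemoglobin-rich OTM droplets held 0 Lrg1 UMIs, with an upper Poisson bound of 0.738 per droplet, whereas OTM neutrophil-like cells held 8.11 (7.91 to 8.31) and Control ones 2.39 (2.31 to 2.48). The ratio was 3.71 (3.38 to 4.07) in mature and 2.14 (2.01 to 2.29) in immature neutrophil-like cells, and it was 2.74 (2.62 to 2.87) over neutrophil-like cells below the limit on monocyte transcripts.

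In monocyte-like cells the Lrg1 share of cells went from 10.1% (8.63 to 11.8) in Control to 45.1% (42 to 48.3) in OTM after thinning. To set aside cells rich in neutrophil transcripts, monocyte-like cells were also limited to those with at most 0.5% of UMIs from Camp, Ngp and Ltf, which kept 1316 Control and 857 OTM cells and is called granule-poor here. In them Lrg1 was at 58.9 CPM (53.1 to 65.1) and 635 CPM (616 to 654), a ratio of 10.8 (9.71 to 12), larger than over all monocyte-like cells. The OTM cluster with the most Saa3 also had the most Lrg1 of the OTM monocyte or macrophage-like clusters, with 1246 CPM (1204 to 1289.6), while the other non-dividing cluster had 354 CPM (331 to 379.5).

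Lcn2 had its highest levels in immature neutrophil-like cells, at 8791 CPM (8669 to 8914) in Control and 12414 CPM (12268 to 12561) in OTM. Over the neutrophil-like class it was at 7138 CPM (7066 to 7210.5) and 9511 CPM (9419.6 to 9604), a ratio of 1.33 (1.31 to 1.35), and 95.2% of Control and 98.4% of OTM cells had at least 1 UMI. The same ratio turned to the other side of 1 under the literal reading of the study's filter, at -0.27 on the log2 scale against 0.41. That filter asks for 200 genes per 1000 UMIs and so leaves out droplets ruled by few genes. It kept 849 Control neutrophil-like cells, 403 of them named immature, and 435 OTM ones, all named mature. Of these OTM cells, 211 formed a cluster led by Ly6g, Mmp9 and Ceacam10, genes that also led the OTM cluster named immature under the main filter. The names therefore do not show that immature OTM cells were left out. The direction of Lcn2 in neutrophil-like cells therefore depended on which cells were counted. Within groups the ratio was 1.41 (1.39 to 1.44) in immature and 1.74 (1.68 to 1.81) in mature neutrophil-like cells, while Camp, Ngp and Ltf had ratios of 0.633, 1.17 and 1.08 in immature and 1.52, 2.12 and 1.46 in mature ones.

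In monocyte-like cells Lcn2 was at 842 CPM (822 to 863, 6296 UMIs) in Control and 1870.2 CPM (1842 to 1899, 16633 UMIs) in OTM, a ratio of 2.22 (2.16 to 2.29). Both levels were below those of neutrophil-like cells of the same library. The highest 10% of cells held 85.2% of these UMIs in Control and 65.0% in OTM, and Camp, Ngp and Ltf had ratios of 1.03, 1.47 and 1.38 in the same cells. All 10 immature neutrophil markers were found there, at a summed 12941 CPM in Control and 24952 CPM in OTM, and under the literal filter the log2 ratio of Lcn2 was 0.45 against 1.15. In granule-poor cells Lcn2 was at 174 CPM (164 to 185) and 703 CPM (684 to 723), a ratio of 4.04 (3.79 to 4.31), whereas Camp, Ngp and Ltf, which the limit itself holds low, had ratios of 0.721, 1.28 and 0.984 there. Thinned shares of cells with Lcn2 were 22.0% (19.8 to 24.4) and 50.5% (47.1 to 53.9).

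Set against granule transcripts, Lcn2 of Control monocyte-like cells had a proportion within the range of the neutrophils of the same library. Control granule-poor cells had 11 Lcn2 UMIs per 100 UMIs of Camp, Ngp and Ltf (10.4 to 11.8), between the 8.55 (8.43 to 8.68) of immature and the 20.3 (19.7 to 21.0) of mature neutrophil-like cells, and the interval overlapped the 8.85 (6.77 to 11.4) of the 44 Control B cell-like cells. Those B cell-like cells were a cluster of their own only at resolution 1.0, and no cluster carried that name at 0.6. At that background proportion, Lcn2 over Control monocyte-like cells as a class is not read as their own expression. Among granule-poor Control groups, MHC class II-like, dividing and other monocyte or macrophage-like cells had 8.63, 9.32 and 11.3, within the B cell-like interval. Granule-poor nonclassical monocyte-like cells had 22.0 (18.3 to 26.3), above the B cell-like interval and overlapping that of mature neutrophil-like cells. Without the granule limit they had 8.69 (8.36 to 9.03), and the source of their Lcn2 was not tested. OTM granule-poor cells had 45.1 (43.6 to 46.7), against 13.5 (13.4 to 13.7) and 19.2 (18.9 to 19.6) in OTM immature and mature neutrophil-like cells. The granule limit itself lowers the denominator of this proportion, and the neutrophil-like cells were not so limited. Over all monocyte-like cells Lcn2 had 8.39 (8.18 to 8.61) in Control and 14.8 (14.5 to 15.0) in OTM. That OTM value lay between those of OTM immature and mature neutrophil-like cells. Lrg1 had 3.74 (3.37 to 4.14) in Control and 40.8 (39.4 to 42.2) in OTM granule-poor cells, against 2.59 (2.37 to 2.82) and 5.20 (5.03 to 5.38) in mature neutrophil-like cells. Over all monocyte-like cells Lrg1 had 1.09 (1.02 to 1.17) in Control and 5.58 (5.44 to 5.72) in OTM.

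**Figure D4:**
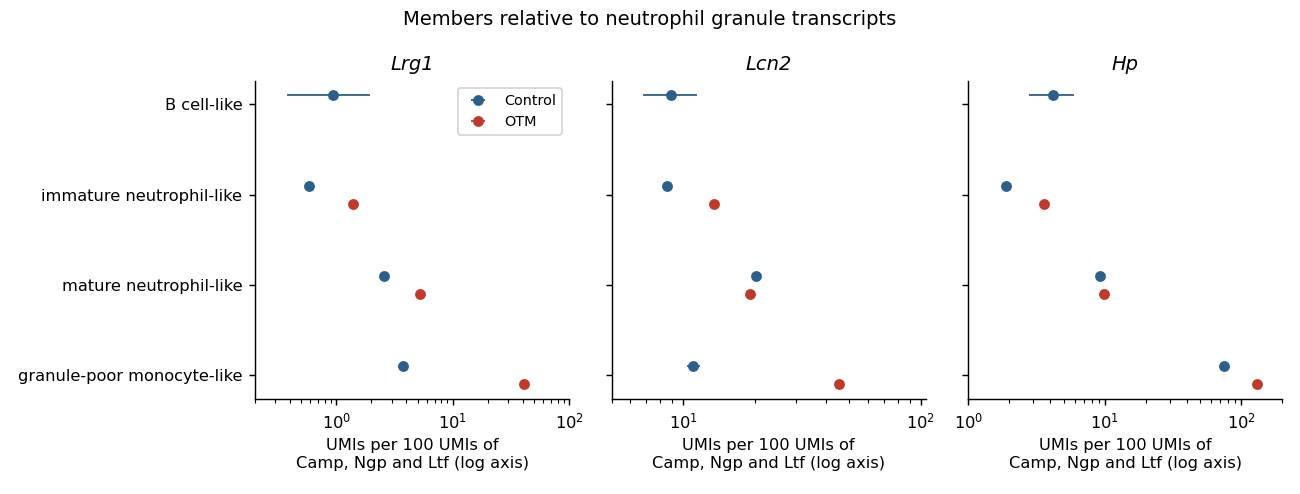
UMIs of Lrg1, Lcn2 and Hp per 100 UMIs of the granule genes Camp, Ngp and Ltf (log axes), with 95% intervals for counting error, Control in blue and OTM in red. B cell-like cells are a Control cluster of the finer clustering (resolution 1.0). For Lcn2 the Control granule-poor monocyte-like point at 11 lies near the B cell-like point at 8.85, and the OTM one lies at 45.1. The granule limit itself lowers the denominator of the granule-poor points, and over all OTM monocyte-like cells Lcn2 had 14.8.

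Hp varied least of the 4 genes among the cell groups, and in monocyte-like cells also between the libraries. It was at 1234 CPM (1209 to 1259) in Control and 2108 CPM (2078 to 2139) in OTM monocyte-like cells, a ratio of 1.71 (1.67 to 1.75), and at 1939 CPM (1901 to 1976) and 3295 CPM (3242 to 3349.9) in neutrophil-like cells, a ratio of 1.70 (1.66 to 1.74). OTM was higher in both classes by nearly the same factor, under the threshold of 2 in each. Within the monocyte-like class Hp was past 2 in MHC class II-like cells, at 2.61 (2.44 to 2.79), and at 2.29 (2.10 to 2.51) in granule-poor ones. Its ratio was 1.54 (1.49 to 1.59) in monocyte or macrophage-like and 1.75 (1.65 to 1.86) in dividing monocyte or macrophage-like cells. Most cells carried Hp, since after thinning it was found in 71.4% of Control and 87.7% of OTM monocyte-like cells and in 89.7% and 95.6% of neutrophil-like cells. Granule-poor monocyte-like cells gave 1.73 (1.68 to 1.77), and their 5.81 and 16.7 Hp UMIs per droplet stood above the 0.455 (0.148 to 1.06) and 1.20 (0.440 to 2.61) of hemoglobin-rich droplets in Control and OTM. In dividing granulocyte progenitor-like cells the Hp ratio was 3.54 (3.29 to 3.8), a log2 ratio of 1.82 that was 1.5 at resolution 1.0 and 0.66 under the literal filter. The OTM cells of this group can include later stages, as the closing section describes.

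The groups could be ordered by level within each library, taking neighbours as alike in order where their counting intervals overlapped. These intervals leave out the spread between cells and between libraries, so the order is a description. In OTM MHC class II-like cells, for example, the highest 10% of cells held 77.7% of the Saa3 UMIs. Saa3 in OTM ran from monocyte or macrophage-like (11335 CPM) through dividing monocyte or macrophage-like, MHC class II-like, mature neutrophil-like and immature neutrophil-like cells to dividing granulocyte progenitor-like cells (319.7 CPM), and no neighbours overlapped. Below the limit on monocyte transcripts, mature neutrophil-like cells had 370.3 CPM (342 to 400.0) and immature ones 226 CPM (206 to 248). Immature cells then stood below progenitor-like cells, to which the limit was not applied. The order of the neutrophil-like and progenitor-like groups is therefore not read as an order of Saa3 expression. Lrg1 in OTM had another order, from mature neutrophil-like (1742 CPM) through immature neutrophil-like, progenitor-like and monocyte or macrophage-like cells (827 CPM) to MHC class II-like (758 CPM) and dividing monocyte or macrophage-like cells (227 CPM). Lcn2 ran in OTM from immature neutrophil-like cells down to dividing monocyte or macrophage-like cells at 747 CPM (703 to 792), with no neighbours overlapping. The place of MHC class II-like cells, at 3803 CPM of Lcn2, depended on granule-rich cells. Granule-poor ones had 581 CPM (538 to 627), below the 686 CPM (644 to 729.9) of granule-poor dividing monocyte or macrophage-like cells. Hp spanned only 1.75 times from the highest to the lowest OTM cluster, and its mature and immature neutrophil-like levels of 3301 and 3290.4 CPM overlapped, as did those of dividing monocyte or macrophage-like cells at 1996 CPM (1925 to 2069) and MHC class II-like cells at 1883 CPM (1829.5 to 1938). In Control, Saa3 was highest in monocyte or macrophage-like cells at 546 CPM (522 to 570.3), Lrg1 in interferon-response mature neutrophil-like cells at 631 CPM (561 to 706), which overlapped the 596 CPM (565 to 629) of immature ones, and Hp in dividing immature neutrophil-like cells at 2080.1 CPM (2007 to 2156). The next Hp levels were those of interferon-response mature neutrophil-like cells at 2027 CPM (1901 to 2159) and non-dividing immature ones at 1956 CPM (1899 to 2015), and the 3 intervals overlapped.

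The 4 genes were found together in single cells to different degrees. Over OTM monocyte-like cells thinned to 1500 UMIs, Lrg1 was found in 52.3% (48.5 to 56.2) of the 669 cells with Saa3 and in 30.6% (25.7 to 35.9) of the 330 without. In Control the shares were 10.4% (6.19 to 16.2) and 10.1% (8.50 to 11.9), which did not differ beyond counting error. Among OTM monocyte or macrophage-like cells alone, Lcn2 was found in 60.5% (56.0 to 64.9) of those with Saa3 and 38.6% (30.8 to 46.8) of those without. As a description over cells of 1 library, Pearson's r of log2 levels for Saa3 and Lrg1 was 0.06 over 1440 Control and 0.44 over 999 OTM monocyte-like cells, and for Lrg1 and Lcn2 it was 0.46 and 0.48. In neutrophil-like cells Saa3 was no more frequent with Lrg1, at 29.1% (25.5 to 32.9) of OTM cells with Lrg1 and 33.2% (26.5 to 40.3) of those without.

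Among granule-poor OTM monocyte-like cells, those with 10 or more Saa3 UMIs had more Lrg1 and Lcn2 than those with fewer. Lrg1 was at 262 CPM (221 to 308) in 99 cells without Saa3, 179 CPM (161 to 198) in 250 cells with 1 to 9 UMIs, 617 CPM (584 to 651) in 255 cells with 10 to 99 and 1138 CPM (1095 to 1182) in 253 cells with 100 or more. Lcn2 was at 369, 398, 739.9 and 1015 CPM and Hp at 1672, 1736, 2097 and 2308 CPM in the same steps. Over all OTM monocyte-like cells, without the limit on granule transcripts, Lrg1 was at 423, 456, 665 and 1095 CPM and Lcn2 at 1617, 2585, 1316 and 1657 CPM in these steps, so Lcn2 was not higher with more Saa3 there. Even the 99 OTM cells without Saa3 had more Lrg1 than the 1091 Control ones, which were at 52.8 CPM (46.8 to 59.3), and more Lcn2 than their 173 CPM (162 to 184). The median total was 5676 UMIs in the OTM cells without Saa3 and 8399 in those with 100 or more, and 178 of these 253 cells belonged to the cluster led by Apoc1, so depth and cluster moved with the step, and their part in the result was not tested.

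**Figure D5:**
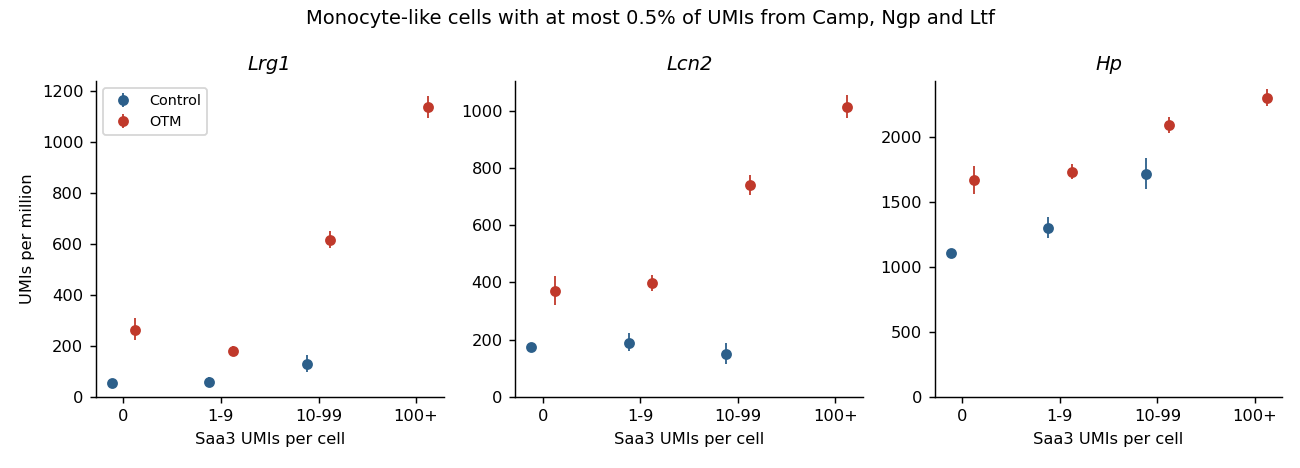
Levels of Lrg1, Lcn2 and Hp (CPM) in granule-poor monocyte-like cells grouped by their number of Saa3 UMIs, with 95% Poisson intervals, Control in blue and OTM in red; groups under 20 cells are left out. In OTM, Lrg1 is at 262 in cells without Saa3, 179 at 1 to 9 UMIs and 1138 at 100 or more.

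Over the 18 clusters of at least 20 cells in both libraries, the genes whose log2 levels were most like those of Saa3 were Lrp10, Igfbp6 and Ms4a8a, with Pearson's r of 0.93, 0.92 and 0.92. Those most like Lrg1 were Dgat2, Chil1 and Klf7 at 0.94, 0.91 and 0.91, and Lcn2 itself stood at rank 7 of 6476 genes with 0.87. Those most like Lcn2 were Anxa1, Wfdc21 and Ankrd22 at 0.96, 0.96 and 0.95, and those most like Hp were Prdx6, Ncf4 and Sqrdl at 0.93, 0.92 and 0.90. Saa3 and Lcn2 had an r of -0.15. Clusters of 1 library share its depth and free RNA, and these values are descriptions.

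The gene lists that follow were chosen with earlier results of these data known. Their limit of 200 UMIs is a sum over both libraries, which a gene can reach through OTM alone. Their counts and medians are therefore descriptions. Of 40 other acute-phase genes, 16 had at least 200 UMIs in monocyte-like cells, 2 of them had a ratio of 2 or more (2.15% of all genes did) and none had 0.5 or less, with a median log2 ratio of 0.45 against -0.11 for all genes. The 2 were Chil3, which encodes a chitinase-like protein, at 2581 and 11810.2 CPM (ratio 4.58, 4.51 to 4.65), and Orm1, which encodes alpha-1-acid glycoprotein, at 15.8 and 36.9 CPM (2.34, 1.89 to 2.91). The next was Chil1 at 1.88 (1.75 to 2.03), and the smallest were C3, the complement component, at 0.705 (0.648 to 0.766), and Ftl1 at 0.942, which moved above 1 with TMM scaling. The other serum amyloid genes were scarce, with 16 and 112 UMIs of Saa1 and 3 and 8 of Saa2 in Control and OTM. In neutrophil-like cells 3 of 15 had a ratio of 2 or more, against 3.42% of all genes, namely Mt2 (3.15, 2.31 to 4.34), Cd14 (2.75, 2.70 to 2.81) and Hmox1 (2.64, 2.20 to 3.19), with a median log2 ratio of 0.43 against -0.10. Orm1 had 0.768 (0.676 to 0.871) there and C3 0.610 (0.541 to 0.686), while Chil3 had 0.901, which moved above 1 with TMM scaling.

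Of 38 inducing cytokines, receptors and transcription factors, 31 had at least 200 UMIs in monocyte-like cells, 7 had a ratio of 2 or more against 2.15% of all genes and none had 0.5 or less, and the median log2 ratio was 0.36. The largest ratios were those of Il1a (43.6 and 299 CPM, 6.85), the decoy receptor Il1r2 (257 and 873 CPM, 3.40) and Il1b (1909 and 6305 CPM, 3.30). The smallest were the interleukin-6 receptor chains Il6st (0.583) and Il6ra (0.642) and the transcription factor Cebpb (0.742). In neutrophil-like cells 12 of 25 had a ratio of 2 or more against 3.42% of all genes and 1 had 0.5 or less against 4.22%, with a median of 0.98. Among the 12, Csf3 (65 Control and 390 OTM UMIs) and Il1a (104 and 575) reached 200 UMIs through OTM, so nothing is read from this count. Csf3 (12.3 and 90.1 CPM, 7.35), Il1a (6.77) and Socs3, the feedback inhibitor of STAT3 signalling (3.78), had the largest ratios in neutrophil-like cells. Cebpe, a factor of granule gene transcription, was at 0.381 (0.330 to 0.438). Cebpe was among the leading genes of the dividing immature cluster of 174 Control cells, which was in this class. The OTM cluster of 251 cells with Cebpe among its leading genes was in neither class. The part of this difference in the Cebpe ratio was not tested. The 12 monocyte markers, all detected, summed to 585 and 696 CPM in neutrophil-like cells, and their part in these ratios was not tested.

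Of 23 receptors and partners of the 4 proteins, 13 were measured in monocyte-like and 9 in neutrophil-like cells at 200 UMIs or more, with 2 and 3 of them at a ratio of 2 or more (2.15% and 3.42% of all genes), none at 0.5 or less and median log2 ratios of 0.21 and 0.56. The formyl peptide receptor Fpr1 had ratios of 4.82 (4.25 to 5.49) and 4.28 (4.01 to 4.58), and Fpr2, a receptor for serum amyloid A, had 2.64 (2.43 to 2.88) and 1.32 (1.23 to 1.41). Cd163, the haptoglobin-hemoglobin receptor, had 13 and 12 UMIs in monocyte-like cells and is not compared. Of 17 neutrophil granule genes, 5 of the 14 measured in monocyte-like cells had a ratio of 2 or more, against 2.15% of all genes, and 0 of the 15 measured in neutrophil-like cells did, against 3.42%, where Camp and Ctsg were at 0.477 and 0.478. The median log2 ratios were 0.57 and -0.15, and Chil3 stands in both this and the acute-phase list. The neutrophil-like class held a dividing immature cluster in Control only, and its part in these ratios was not tested. Within groups Camp had ratios of 0.633 in immature and 1.52 in mature neutrophil-like cells.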

How the data were processed

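The authors aligned reads with Cell Ranger 3.0.0 (also naming Seurat 3.0.0) to mm10 and deposited UMI counts per gene and barcode, without normalization. The study states more cells than the tables have barcodes. Kept cells had at least 200 genes and at most 5% mitochondrial UMIs. Each library was clustered with Seurat 5.3.0 in R 4.3.3 (12 and 8 principal components, resolution 0.6, seed 42). Clusters were named from marker lists by at least 3 markers, with naming thresholds set with the data at hand. Scrublet in scanpy 1.11.5 called 0 Control and 5 OTM doublets, under the rate at which such a caller is taken to work, and all cells were kept. UMIs were summed per class with Python 3.11.15 and scipy 1.17.1, ratios had conditional binomial intervals, and 0.5 UMIs were added before log2. edgeR 4.0.16 served for scaling factors only. Likeness used log2(CPM + 10). The genes named were the members, the 3 most like each, and up to 3 per list, class and direction, and Saa1, Saa2 and Cd163 were named after their values were seen. The members and lists were chosen with earlier results of these data known. The ratio script was tested on simulated data. Alternatives are given in the closing section. How reads shared by Saa paralogs were counted is not given in the sources used here.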

Additional observations from a re-analysis of the deposited data

How the results depend on the processing

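All alternatives kept the 8 log2 ratios positive except 1. The values follow as Saa3, Lrg1, Lcn2 and Hp, against 4.44, 2.69, 1.15 and 0.77 in monocyte-like and 3.82, 1.47, 0.41 and 0.77 in neutrophil-like cells. The literal filter of 200 genes per 1000 UMIs gave 4.73, 2.98, 0.45 and 0.86, and 4.16, 1.34, -0.27 and 0.62. Resolution 1.0 gave 4.54, 2.70, 1.16 and 0.83, and 3.04, 1.37, 0.49 and 0.76. Classes set per cell by marker UMIs left 129 Control and 30 OTM monocyte-like cells and gave 5.11, 1.74, 0.91 and 0.38, and 5.94, 1.37, 0.25 and 0.75. TMM gave 4.58, 2.83, 1.29 and 0.92, and 4.0, 1.65, 0.59 and 0.94. Median-of-ratios scaling gave 4.61, 2.86, 1.32 and 0.95, and 4.02, 1.68, 0.62 and 0.97. The mean over cells gave 4.54, 2.99, 1.29 and 0.83, and 3.94, 1.58, 0.37 and 0.83. Alternatives chosen after seeing the data were the granule-poor cells (4.51, 3.43, 2.01 and 0.79), monocyte-like clusters without those rich in granule transcripts (4.62, 3.16, 1.11 and 0.84), neutrophil-like cells low in monocyte markers (3.36, 1.45, 0.41 and 0.78) and classes without dividing clusters (4.35, 2.64, 1.05 and 0.76, and 3.46, 1.41, 0.50 and 0.81). The causes were not tested. Removing Scrublet doublets moved no value past its interval. Cells with no UMI of Camp, Ngp or Ltf, 2 Control and 1 OTM, gave no value. At least 1000 UMIs left 59 monocyte-like and 37 neutrophil-like genes at a ratio of 2 or more, and 1 UMI in each library gave 633 and 845, against 109 and 94. No paired analysis was possible because each group had 1 library. Depth was no limit for the 4 genes in either class, but the 5 hemoglobin-rich OTM droplets and 44 B cell-like cells give the background with wide bounds.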

Other observations

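Dividing granulocyte progenitor-like cells, with Elane, Mpo and Prtn3, belonged to neither class. In the 78 Control and 251 OTM cells Lcn2 was at 746 CPM (692 to 802) and 8328 CPM (8229 to 8427), a ratio of 11.2 (10.4 to 12), and Lrg1 at 154 and 1022 CPM, a ratio of 6.66 (5.64 to 7.91). The log2 ratio of Lcn2 was 3.48, but 2.06 at resolution 1.0 (80 and 87 cells) and 0.06 under the literal filter (117 and 46 cells). For Lrg1 the same 3 values were 2.73, 2.18 and 1.42. Ltf, a specific granule gene of later stages, had 12.3 (11.3 to 13.5) and Camp 3.05 in the same cells. The OTM cluster was also led by Fcnb and Cebpe, and the stage mix of these clusters and the library cannot be told apart. The median log2 ratio over 1775 genes was -0.31 in this group.

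The 173 Control nonclassical monocyte-like cells had 3439 CPM of Lcn2 (3314 to 3568) and 374 CPM of Lrg1 (333 to 418), the highest of both among the Control monocyte-like groups, and 50.2% of their Lcn2 UMIs came from 10% of the cells. The granule limit of 0.5% was exceeded by 39.3% of these cells, and the granule-poor ones had 431 CPM of Lcn2 (364 to 507) and 180.2 CPM of Lrg1 (138 to 231). The 44 B cell-like cells of the finer Control clustering had 249 CPM of Lcn2 and 117 CPM of Hp.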
